A study of Homo sapiens with 4 samples.

Results

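Purinergic signalling genes were followed in human microglia-like cells with and without SHIP1. The set held 10 genes, chosen by name as a pathway, with no threshold on their values, among the 35605 genes to which the transcripts of the series were summed. The choice was made with earlier results of these data known. It comprised 4 metabotropic nucleotide receptors (P2RY12, P2RY13, P2RY6, P2RY2), 2 ATP-gated channels (P2RX4, P2RX7), 2 adenosine receptors (ADORA3, ADORA2A), the ectonucleotidase ENTPD1 and the lysophosphatidylserine receptor GPR34. RNA was taken from iMGL, cells differentiated towards microglia from WTC11, a widely used human iPSC line. The control group (WT, n = 2 libraries) and the knockout group (S1KO, n = 2 libraries) differed by an edit that removes SHIP1, the inositol phosphatase encoded by INPP5D, and no drug or stimulus was named for either group. The design text gives 2 clones for each genotype, but a replicate number is not tied to a clone in the labels, and the p-values below reflect no more than the spread among the 4 libraries.

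Cells release ATP, ADP and UTP when they are active, stressed or broken, and microglia read these nucleotides as signals of nearby activity or damage. P2Y receptors couple to G proteins, with P2RY12 steering microglial processes towards ADP and P2RY6 promoting phagocytosis in response to UDP, whereas P2X receptors are ion channels that open when ATP binds. ENTPD1 (CD39) on the cell surface strips phosphates from ATP and ADP, and the adenosine formed further downstream acts on adenosine receptors.

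Most of the members lay in pairs of neighbours in the human genome (GRCh38, GENCODE 29). P2RY12 (3:151337380-151384812) and P2RY13 (3:151326312-151329548) lay side by side on the minus strand of chromosome 3, inside MED12L, which is read from the opposite strand. P2RX7 (12:121132819-121188032) and P2RX4 (12:121209857-121234106) followed each other on the plus strand of chromosome 12. P2RY2 (11:73218298-73236352) and P2RY6 (11:73264505-73298617) did so on chromosome 11. ADORA3 was on chromosome 1, ADORA2A on chromosome 22, ENTPD1 (10:95711779-95869695) on chromosome 10 and GPR34 on chromosome X. The sequences before the start sites of P2RY12 and P2RY13 are shown because these neighbours share a receptor family and both had lower levels in S1KO. RefSeq (GRCh38.p14) promoters were at hand for 6 of the 10 members. Those of P2RY12 and P2RY13 are printed 5′ to 3′ on the minus strand, as far as they lie outside the gene, and capitals mark matches to AGGAAGT, a site for ETS factors such as the myeloid factor PU.1, or to TATAAA on either strand.
P2RY12, chr3:151384813-151385003: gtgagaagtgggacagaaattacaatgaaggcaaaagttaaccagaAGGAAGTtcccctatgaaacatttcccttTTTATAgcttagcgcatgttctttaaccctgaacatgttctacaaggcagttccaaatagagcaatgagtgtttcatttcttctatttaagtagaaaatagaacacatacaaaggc
P2RY13, chr3:151329550-151329799: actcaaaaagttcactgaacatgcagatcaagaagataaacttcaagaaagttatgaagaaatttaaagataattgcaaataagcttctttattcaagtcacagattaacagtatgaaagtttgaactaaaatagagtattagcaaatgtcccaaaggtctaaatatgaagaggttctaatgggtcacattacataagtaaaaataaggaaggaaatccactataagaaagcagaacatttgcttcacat
In P2RY12 the AGGAAGT match began 204 bases before the RefSeq start, and the TATAAA match lay on the opposite strand, 175 bases before it. A second P2RY12 window, at an inner RefSeq start (3:151340823-151341072), held TATAAA on the given strand. TATAAA was found in 10.7% of all windows and in 3 of the 11 windows of the members. The P2RY13 window held neither word. AGGAAGT, on either strand, was found in 7.01% of 35116 promoter windows of 250 bases, and in 3 of the 11 windows of the members (1 each of P2RY12, ADORA3 and ENTPD1). The longer word GAGGAAGT, which contains it, was found in 2.17% of all windows and in the ADORA3 window. Fixed 10-letter forms of the interferon-stimulated response element and of the MEF2 box were in none of the 11 windows, against 3.02% and 2.36% of all.

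The libraries held 21516813 to 25927881 estimated counts. Mitochondrial genes took 14.20% and 18.90% of them in WT but 52.32% and 39.24% in S1KO. Outside those genes, WT 1 and WT 2 retained 18461467 and 21028441 counts, and S1KO 1 and S1KO 2 10866559 and 13571447. For INPP5D, the targeted gene, WT 1 and WT 2 had 356 and 441 CPM against 81.0 and 97.6 CPM in the knockout libraries (log2 fold change -2.16 ± 0.21 SE, adjusted p = 0.0185), where CPM is the estimated count scaled to the TMM-adjusted size of the library. Of 14 microglia and myeloid markers 13 were tested, and edgeR called none (7 at an unadjusted p under 0.05, as were 2992 of all 15388 genes). DESeq2 called 6 lower, against 3.29% of all genes, and for 9 of the 13 each S1KO library lay below each WT library, against 25.7% of all genes. Their summed level was 5513 and 5527 CPM in WT against 3583 and 3746 CPM in S1KO, and the microglial markers TMEM119 (0.798 to 3.10 CPM) and SALL1 (0 to 0.179 CPM) were near 0 in all 4 libraries. WT 1 stood apart with 3165 CPM summed over 8 mesenchymal markers, most of it COL1A1, against 3.10 to 19.0 CPM in the other libraries, and values without WT 1 are given beside the results. Pluripotency markers summed to 7.26 and 12.7 CPM in WT and 24.6 and 28.8 CPM in S1KO. Platelet markers summed to 7.29 and 11.4 CPM in WT and 13.8 and 12.1 CPM in S1KO, most of it ITGA2B, with PF4 and PPBP at 0 in every library. Mast cell markers summed to 1.75 to 9.70 CPM, most of it KIT, with TPSAB1 and CPA3 at 0, and granulocyte markers to 1.79 to 2.49 CPM, with AZU1 and CEBPE higher in both S1KO libraries and MPO, ELANE, PRTN3 and CLC at 0. The lists of lymphocyte, erythroid, endothelial and neural markers each summed to under 10 CPM.

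P2RY12 was the member that fell past the test. This receptor for ADP, which is a classical marker of homeostatic microglia, had 36.6 and 27.8 CPM in WT 1 and WT 2 and 11.5 and 12.1 CPM in S1KO 1 and S1KO 2. Both S1KO libraries were below both WT libraries, and the S1KO libraries were close to each other. The level was 2.73-fold lower in S1KO (log2 fold change -1.45 ± 0.22 SE, 95% interval -1.98 to -0.93, adjusted p = 0.0485, edgeR's quasi-likelihood test with Benjamini-Hochberg adjustment over 15388 genes). P2RY12 was thus 1 called member of 9 tested, in a comparison that called 0.942% of genes in either direction, 0.149% as lower and 0.793% as higher. The call was narrow. It held in 9 of 15 alternatives, which include the fits with a library left out. The fold change was negative in all 15, from -2.38 to -1.24. Without WT 1, where only the S1KO libraries give a spread, the log2 fold change was -1.24. Without S1KO 1 it was -1.42 (adjusted p = 0.688), and without S1KO 2 it was -1.51 (adjusted p = 0.441), and in both of these fits edgeR called no gene at all (1170 and 1641 genes at an unadjusted p under 0.05). Without mitochondrial genes in the fit it was -1.45 (adjusted p = 0.0498). The summed microglia markers given above moved in the same direction as P2RY12, and their part in the result was not tested. Singly, 10 of the 13 tested markers had a negative log2 fold change, while AIF1 (0.14), CD68 (0.24) and TMEM119 (0.29) had a positive one. In bulk RNA, fewer cells of a type and less RNA per cell cannot be told apart.

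**Figure D1:**
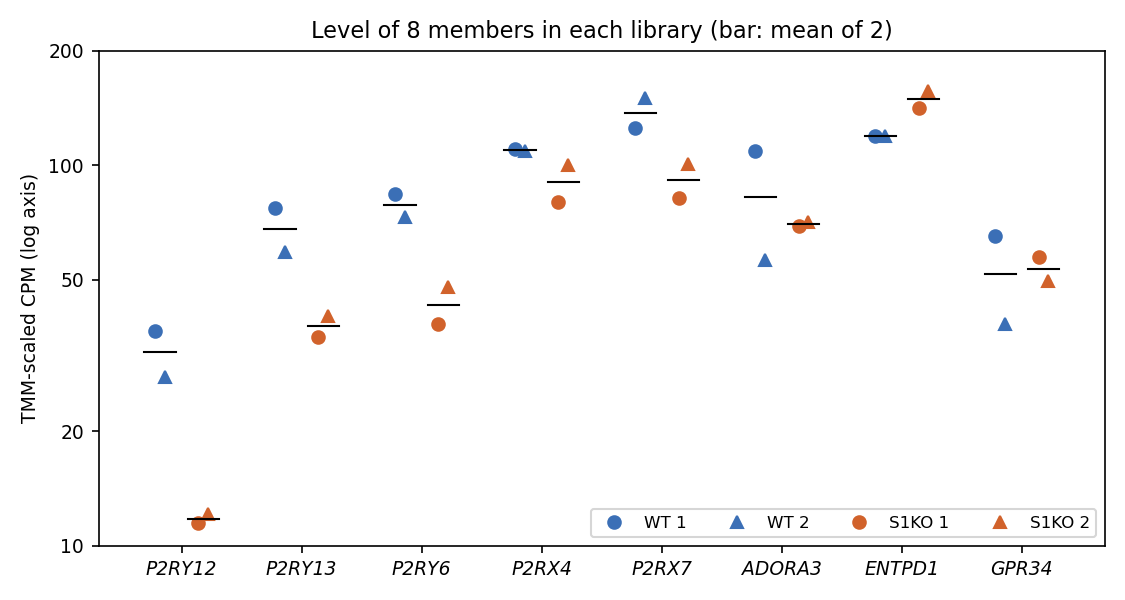
Level of 8 members in each of the 4 libraries, as TMM-scaled CPM on a log axis, with WT in blue, S1KO in orange and a bar at the mean of the 2 libraries of a genotype. P2RY12, P2RY13, P2RY6, P2RX4 and P2RX7 have both S1KO libraries below both WT libraries, ENTPD1 has both above, and ADORA3 and GPR34 overlap (ADORA2A and P2RY2 are below the axis).

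P2RY13, a second ADP receptor and the neighbour of P2RY12, had 77.1 and 59.1 CPM in WT and 35.3 and 40.2 CPM in S1KO. P2RY6, the UDP receptor, had 84.3 and 73.0 CPM in WT and 38.2 and 47.7 CPM in S1KO. For both genes the groups did not overlap, with the higher S1KO library still below the lower WT library. The log2 fold changes were -0.85 ± 0.20 SE for P2RY13 (95% interval -1.33 to -0.38, adjusted p = 0.101) and -0.87 ± 0.19 SE for P2RY6 (95% interval -1.32 to -0.42, adjusted p = 0.0931), so neither passed the edgeR test. DESeq2 called both lower, with adjusted p = 0.00852 for P2RY13 and 0.00366 for P2RY6, as well as P2RY12, in a test that called 3.29% of genes as lower. Without WT 1 the log2 fold changes were -0.65 for P2RY13 and -0.76 for P2RY6 in edgeR. P2RY6 was carried mostly by the transcript P2RY6-202, which held 71.5% to 85.2% of the gene's counts in the 4 libraries. MED12L, which overlaps P2RY12 and P2RY13 on the other strand, had 10.9 and 9.29 CPM in WT and 6.47 and 10.7 CPM in S1KO (log2 fold change -0.23, adjusted p = 0.729), and whether the counting used strand is not given.

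P2RY2, a receptor for ATP and UTP that is best known from epithelia and activated glia, was barely detected. Its estimated counts were 7 in WT 1, 2 in S1KO 1 and 0 in the other libraries, and it was the one member left out of the test by the filter on low counts. A count of 0 leaves room for up to 3 counts, and at this depth no difference between the genotypes was detectable.

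The ATP-gated channels were among the better expressed members. P2RX7, the channel that opens at high ATP and drives inflammasome activation, had 125 and 150 CPM in WT and 82.2 and 101 CPM in S1KO. P2RX4, a channel of high ATP affinity that sits largely in lysosomes, had 110 and 109 CPM in WT and 80.3 and 100 CPM in S1KO. For both genes the S1KO libraries lay below the WT libraries, for P2RX4 by a small margin in S1KO 2. The log2 fold change of P2RX7 was -0.59 ± 0.19 SE (95% interval -1.04 to -0.14, adjusted p = 0.173, and -0.71 without WT 1). That of P2RX4 was -0.28 ± 0.17 SE (95% interval -0.69 to 0.14, adjusted p = 0.431, and -0.27 without WT 1). Neither channel passed the test in all 4 libraries. The ratio of P2RX7 to P2RX4 by TPM, a measure per transcript length, was 0.456 in WT 1, 0.568 in WT 2, 0.372 in S1KO 1 and 0.386 in S1KO 2. Groups of 2 against 2 allow no exact p under 0.33, so ratios are given without a test.

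The transcripts behind the channels differed in kind. For P2RX7 the protein-coding transcript P2RX7-202 held 88.6% and 88.0% of the counts in WT and 92.6% and 95.2% in S1KO. For P2RX4, transcripts annotated as protein-coding held only 30.2%, 22.8%, 34.7% and 27.2% of the counts in WT 1, WT 2, S1KO 1 and S1KO 2. The largest share of P2RX4 went to P2RX4-214, annotated as a target of nonsense-mediated decay, a pathway that degrades RNAs with an early stop codon. P2RX4-214 had 38.6 and 40.5 CPM in WT and 26.4 and 32.3 CPM in S1KO. The full-length coding transcript P2RX4-202 had 30.0 and 22.9 CPM in WT and 17.2 and 20.6 CPM in S1KO. P2RX4-203, also coding, went the other way, with 2.75 and 1.29 CPM in WT and 9.14 and 5.78 CPM in S1KO. Counting protein-coding transcripts only, the P2RX4 log2 fold change was -0.07 in place of -0.28.

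Among the adenosine receptors, ADORA3 was abundant and ADORA2A scarce. ADORA3, which couples to inhibitory G proteins, had 109 and 56.5 CPM in WT and 69.3 and 71.0 CPM in S1KO. Both S1KO libraries fell between the WT libraries, which were far apart. The log2 fold change was -0.23 ± 0.30 SE (95% interval -0.96 to 0.49, adjusted p = 0.713). Its direction rested on 1 library, being 0.31 without WT 1 and -0.63 without WT 2. TMIGD3, which shares a first coding exon with ADORA3 on the same strand, had 105 to 140 CPM (log2 fold change -0.22, adjusted p = 0.543). Reads from the shared exon can be divided between them. Most TMIGD3 counts, however, were on TMIGD3-203, which lies outside the span of ADORA3. TMIGD3-201, which starts inside that span, had 0 to 39.6 estimated counts, and TMIGD3-202, which runs across it, had 456 to 812. ADORA2A, a receptor that raises cyclic AMP and dampens inflammation, had only 23.7 and 18.1 estimated counts in WT against 2.2 and 9.0 in S1KO. The S1KO libraries were lower on CPM, but the interval of the log2 fold change ran from -3.15 to 0.58 (adjusted p = 0.416, and -0.97 without WT 1), and the sign turned to 0.72 when effective length entered as an offset. SPECC1L-ADORA2A, a readthrough gene over the same exons, held more counts than ADORA2A in every library (1.61 to 3.96 CPM).

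ENTPD1, the enzyme that removes ATP and ADP at the cell surface, was the one member with both S1KO libraries above both WT libraries. It had 119.1 and 119.2 CPM in WT and 142 and 157 CPM in S1KO. The log2 fold change of 0.33 ± 0.16 SE (95% interval -0.05 to 0.70) did not pass the test (adjusted p = 0.315), and it was also 0.33 without WT 1. Across the 9 tested members, 6 thus had both S1KO libraries below both WT libraries on CPM and 1 had both above, where 25.7% and 26.0% of all 15388 genes did so. The median log2 fold change of the 9 members was -0.59, against -0.01 over all genes tested. Of the 9 members, 4 were at an unadjusted p under 0.05 in edgeR, as were 2992 of all genes. The 13 tested microglia and myeloid markers had a median of -0.72, with 9 below and 0 above in the same sense. Members were chosen with earlier results of these data known, so these contrasts describe the set and do not test it.

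**Figure D2:**
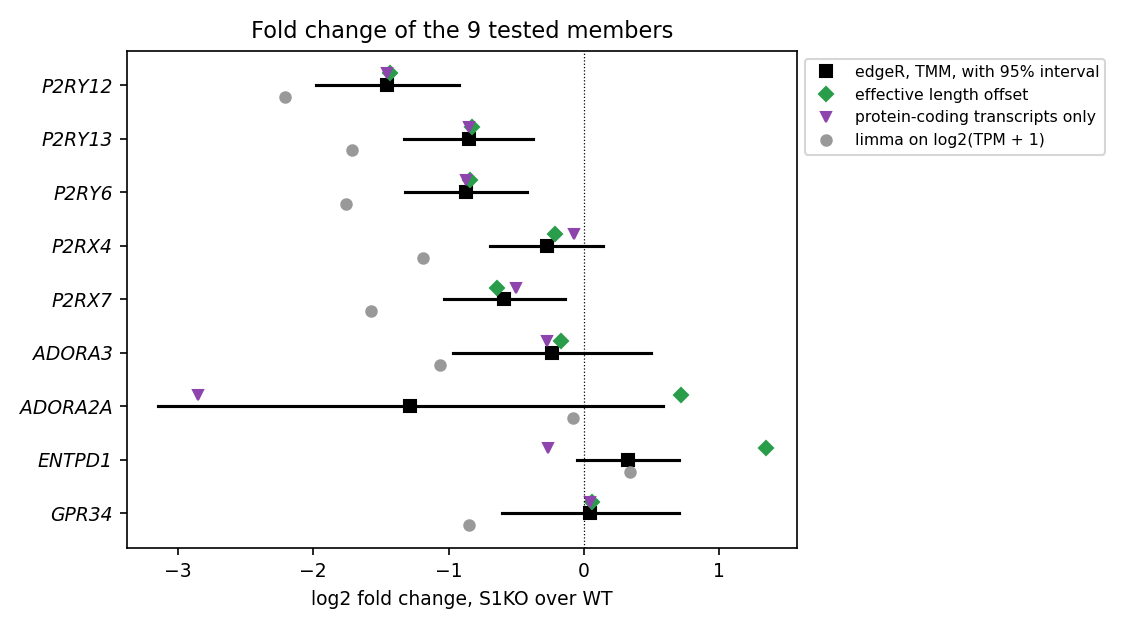
Log2 fold change of the 9 tested members, S1KO over WT, with the edgeR value and its 95% interval in black, and 3 alternatives as coloured marks. P2RY12, P2RY13, P2RY6, P2RX4, P2RX7 and ADORA3 stay left of 0 under every setting drawn. ENTPD1 moves from -0.27 (protein-coding transcripts only) to 1.35 (effective length offset), and the TPM values sit left of the others for all members but ADORA2A and ENTPD1.

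The kind of ENTPD1 transcript differed between the genotypes more than the sum. Protein-coding ENTPD1 transcripts held 81.9% (95% Wilson interval 80.6% to 83.2%) and 85.4% (84.3% to 86.5%) of the gene's counts in WT 1 and WT 2. In S1KO 1 and S1KO 2 they held 57.6% (55.5% to 59.7%) and 53.9% (52.2% to 55.5%), intervals that cover counting error only. The groups lay far apart, by 27.9 percentage points in the mean, while the libraries of a genotype were within 4 points of each other. The protein-coding transcripts themselves had 97.6 and 102 CPM in WT and 81.7 and 84.7 CPM in S1KO. Transcripts annotated as targets of nonsense-mediated decay had 11.3 and 8.82 CPM in WT and 31.5 and 35.1 CPM in S1KO. Those with a retained intron had 9.88 and 8.05 CPM in WT and 28.2 and 36.1 CPM in S1KO. Summed ENTPD1 was therefore higher in S1KO through counts assigned to transcripts that are not annotated as coding. With coding transcripts alone its log2 fold change was -0.27 (adjusted p = 0.430). For comparison, 9157 protein-coding genes had at least 100 counts in every library. Of these, 1.55% had both S1KO shares below both WT shares, with the means at least 20 points apart. The median difference was 0.44 points over the 8041 of these genes that also had counts on other transcripts. ENTPD1 was at rank 68 from the lowest of the 9157. The difference in share was not tested, since the exact permutation test used for single values cannot go under 0.33 with 2 libraries against 2.

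Single transcripts accounted for most of this. The retained-intron transcript ENTPD1-202 (10:95823236-95846396) had 8.81 and 7.01 CPM in WT and 27.5 and 35.8 CPM in S1KO. ENTPD1-207, annotated as a target of nonsense-mediated decay, had 1.91 and 2.36 CPM in WT and 14.2 and 18.3 CPM in S1KO. ENTPD1-213, of the same annotated type, had 9.36 and 6.46 CPM in WT and 17.3 and 12.8 CPM in S1KO. In all 3 of these each S1KO library exceeded each WT library, with the widest gap in CPM for ENTPD1-202 and the widest ratio for ENTPD1-207. The main coding transcript ENTPD1-201 had 66.8 and 67.5 CPM in WT and 57.1 and 54.6 CPM in S1KO. ENTPD1-202 and ENTPD1-207 are shorter than ENTPD1-201 (1598 and 773 bases against 12493 in the deposited files), so that per length they weighed more. By TPM the coding share of ENTPD1 was 40.0% and 44.1% in WT but 15.3% and 13.4% in S1KO. With effective length as an offset the gene's log2 fold change was 1.35 (adjusted p = 0.0414), a call in a fit that called 1.06% of genes as higher. The points at which these transcripts part from ENTPD1-201 are shown because they are what separates the coding from the other counts. Each line gives 15 bases on either side of a junction on the plus strand (GENCODE 29 transcripts, GRCh38), with capitals for the bases after the junction.
ENTPD1-201, 95756255 to 95823237: tggaagatacaaaggAGTCTAACGTGAAGA
ENTPD1-207, 95756255 to 95839691: tggaagatacaaaggTATGGGATTGTGCTG
ENTPD1-201, 95842494 to 95844476: catgcggttgctcagGATGGAAAGTGAAGA
ENTPD1-207, 95842494 to 95844555: catgcggttgctcagGGTGCCAGGATCATT
ENTPD1-201, 95845596 to 95847446: gccaaggacattcagGTTGCAAGTAATGAA
ENTPD1-202, 95845596 to 95845597: gccaaggacattcagGCAAGTATAACTCAA
ENTPD1-207 leaves the first coding exon at the base where ENTPD1-201 does but enters at a later exon, and further on it joins the next exon at a later base. ENTPD1-202 does not splice at 95845596. It reads on into the intron, whose first bases are GC rather than the usual GT, and its annotated end at 95846396 lies inside that intron. How kallisto divided reads among these transcripts carries an error that the deposited values do not give. Other annotated genes overlap ENTPD1. ENTPD1-AS1 (10:95753206-96090238, other strand) and AL365273.1 (10:95833508-95873758, same strand) had no transcript in the series. Whether reads from them were assigned to ENTPD1-202 or ENTPD1-207 was not tested. AL365273.2, on the same strand, was quantified and reached at most 6.2 counts in a library.

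**Figure D3:**
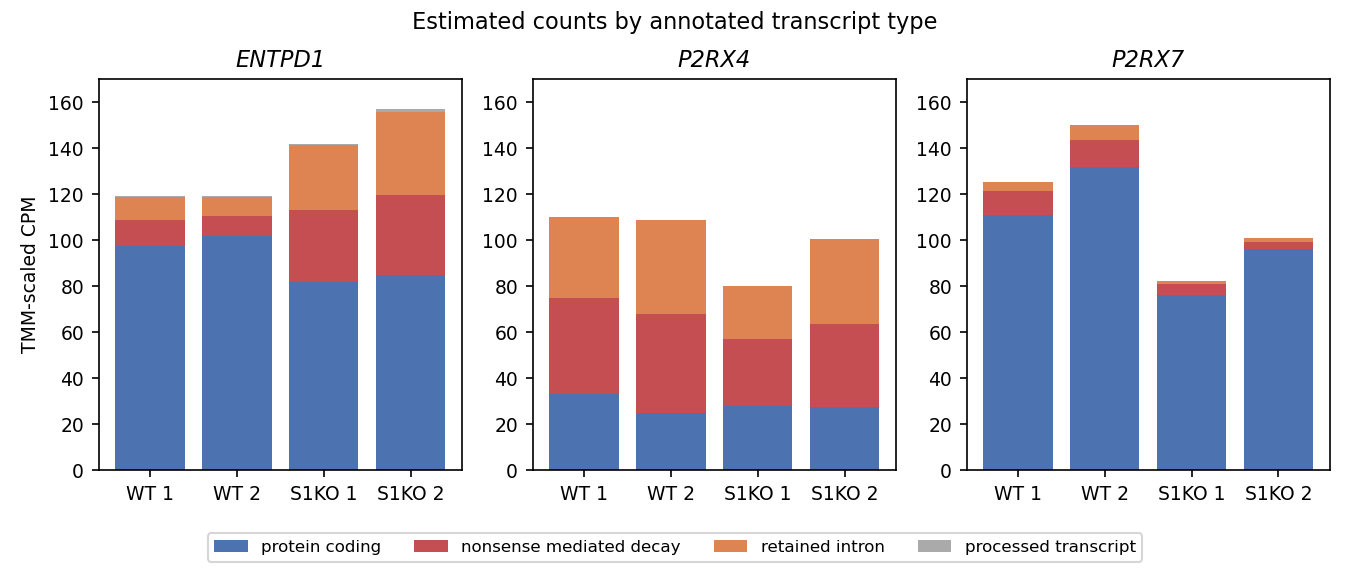
TMM-scaled CPM of ENTPD1, P2RX4 and P2RX7 in each library, stacked by the annotated type of the transcript. The coding part of ENTPD1 is 97.6 and 102 in WT and 81.7 and 84.7 in S1KO while the decay and retained-intron parts are taller in S1KO, P2RX4 is mostly not coding in all 4 libraries, and P2RX7 is mostly coding.

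GPR34 senses lysophosphatidylserine, a lipid exposed by dying cells, and is related to P2RY12 in sequence family. It had 65.2 and 38.2 CPM in WT and 57.2 and 49.5 CPM in S1KO. Both S1KO libraries lay between the WT libraries, and the log2 fold change was 0.05 ± 0.27 SE (adjusted p = 0.943). The interval, -0.61 to 0.70, leaves room for a change of some size in either direction. The sign depended on the library, at 0.48 without WT 1 and -0.29 without WT 2. CASK, which overlaps GPR34 on the other strand, had 8.22 to 9.89 CPM in all libraries.

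By TPM, the scale on which genes can be set side by side, the members ranked differently in the 2 genotypes. In WT the order was P2RX4 (94.5 ± 7.95 TPM, SD, n = 2), ADORA3 (80.7 ± 40.4), P2RY6 (56.4 ± 11.9), P2RX7 (48.1 ± 3.39), ENTPD1 (44.6 ± 5.22), GPR34 (43.3 ± 19.0), P2RY13 (37.6 ± 9.67) and P2RY12 (30.1 ± 8.23). The ranges of neighbours in this order overlapped throughout, and only ADORA2A (0.732) and P2RY2 (0.0978) stood clear below them. In S1KO the order was ENTPD1 (60.4 ± 29.7 TPM), P2RX4 (43.0 ± 19.4), ADORA3 (37.0 ± 14.4), GPR34 (22.8 ± 5.58), P2RY6 (16.6 ± 7.46), P2RX7 (16.4 ± 7.79), P2RY13 (11.1 ± 4.70) and P2RY12 (5.79 ± 2.20). Here ADORA3 lay clear of GPR34, and P2RY13 clear of P2RY12. The rank of ENTPD1 in S1KO rested largely on transcripts not annotated as coding. Coding ones held 40.0% and 44.1% of its TPM in WT but 15.3% and 13.4% in S1KO. By TPM, ENTPD1 also overlapped between the genotypes (48.3 and 40.9 in WT, 39.4 and 81.4 in S1KO). TPM of all other genes is lowered where mitochondrial RNA takes a larger share, and on log2(TPM + 1) the median of all genes tested was -0.78, with 71.0% of genes lower in both S1KO libraries by TPM. On that scale limma called 4 members lower (P2RY12, P2RY13, P2RY6 and P2RX7), where it called 18.0% of all genes as lower. Rescaled without mitochondrial genes, P2RY12 had 48.1 and 35.1 TPM in WT and 12.9 and 16.4 TPM in S1KO (log2 fold change -1.44, adjusted p = 0.0735 by limma), and the groups were still apart.

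Ratios within a library do not depend on that scaling. The TPM of ENTPD1 over that of P2RY12 was 1.34 and 1.68 in the WT libraries and 9.31 and 11.1 in the S1KO libraries. On estimated counts, which do not weigh the short transcripts, it was 3.25 and 4.29 in the WT libraries and 12.4 and 13 in the S1KO libraries. Both forms include the ENTPD1 transcripts not annotated as coding, which were higher in S1KO. With coding transcripts only, the edgeR log2 fold change was -0.27 for ENTPD1, 0.05 for GPR34 and -1.45 for P2RY12. On that basis ENTPD1 was not the member furthest from P2RY12. P2RX4 over P2RY12, by TPM, was 2.78 and 3.66 in the WT libraries against 6.91 and 7.72 in the S1KO libraries. For all of the 7 members compared with P2RY12 in this way each S1KO ratio exceeded each WT ratio, the means differing by 0.58 (P2RY6) to 2.75 (ENTPD1) on the log2 scale. These ratios share P2RY12 as denominator, the member with the lowest fold change, and are not 7 separate observations. P2RY13, the neighbour with the same ligand, was among the members nearest to P2RY12, at ratios of 1.24 and 1.27 in WT and 1.83 and 1.96 in S1KO.

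**Figure D4:**
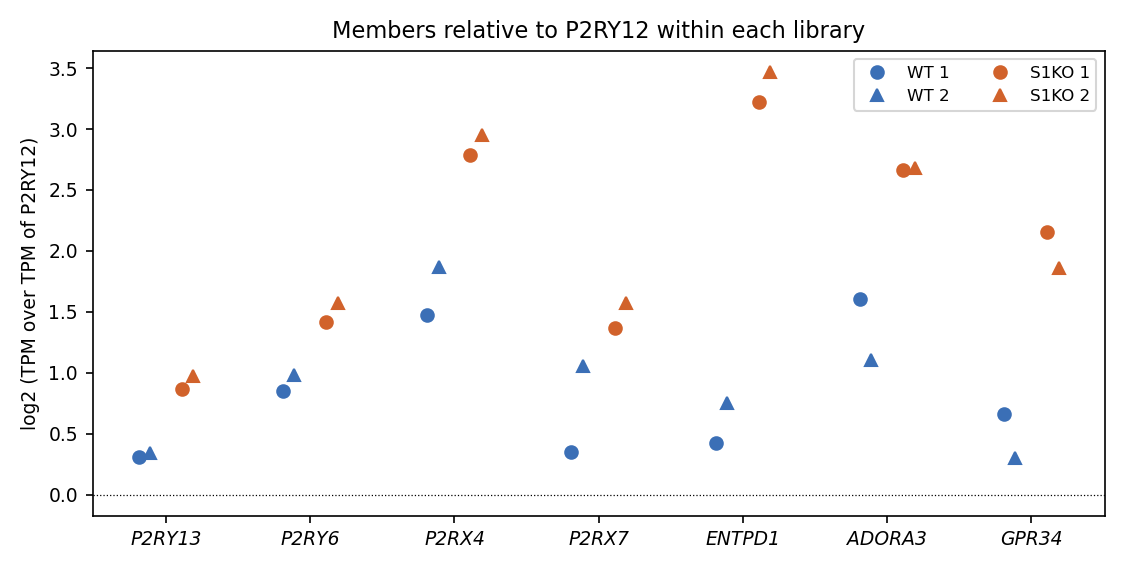
TPM of 7 members over the TPM of P2RY12 in the same library, as log2, with WT in blue and S1KO in orange. Every member has both S1KO libraries above both WT libraries. In the difference of the means the gap is narrowest for P2RY13 and P2RY6. It is widest for ENTPD1, whose TPM includes transcripts not annotated as coding.

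The genes whose profile over the 4 libraries was nearest to that of P2RY12, by distance on log2 CPM after centring among 8601 protein-coding genes of mean TPM of at least 5, were SCD (distance 0.09), PDIA3 (0.10) and XBP1 (0.10). SCD is a desaturase of fatty acids, PDIA3 a disulfide isomerase of the endoplasmic reticulum and XBP1 a factor of the unfolded protein response. Their log2 fold changes were -1.41, -1.38 and -1.40, and SCD and XBP1 were called lower (adjusted p = 0.0485 and 0.0432) while PDIA3 was not (0.0528). P2RY13 was at a distance of 0.60, with 116 genes nearer, and P2RY6 at 0.60, with 117 nearer. With 4 libraries such distances describe these libraries only.

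Around the members, 79 other genes of the pathway were listed in 6 groups, and 65 passed the filter. None was called by edgeR (16 at an unadjusted p under 0.05), and DESeq2 called 8, of which 6 were lower and 2 higher, in a test that called 7.54% of all genes, 4.26% of them as higher. Of the 65, 22 had both S1KO libraries below both WT libraries and 12 had both above, where 25.7% and 26.0% of all genes did so. Among the other nucleotide and adenosine receptors 8 of 14 were tested, their median being -0.55 (log2 fold change). For 5 of them each S1KO library lay below each WT library, with none above. Only P2RY8 (0.06) and P2RY10 (0.34) had a positive log2 fold change. P2RY10 is also counted in the list of lysophosphatidylserine receptors, so the median of this list is not one of nucleotide and adenosine receptors alone. P2RX1, an ATP-gated channel that desensitizes fast, had 46.4 and 90.6 CPM in WT but 10.04 and 22.4 CPM in S1KO (-2.07 ± 0.46 SE on the log2 scale, adjusted p = 0.0952), and DESeq2 called it lower. P2RY11, an ATP receptor, had 65.7 and 67.6 CPM in WT and 56.2 and 60.1 CPM in S1KO (adjusted p = 0.539). ADORA1, the adenosine receptor coupled to inhibitory G proteins, had 22.1 and 26.0 CPM in WT and 14.4 and 15.4 CPM in S1KO (adjusted p = 0.145). All 3 had groups that did not overlap, with P2RX1 the widest apart and P2RY11 close.

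The other ectonucleotidases and enzymes of adenosine removal had a median log2 fold change of -0.26 over 12 tested genes. Of these, 4 were lower and 3 higher in both S1KO libraries, as were 25.7% and 26.0% of all genes. ADA2, a secreted adenosine deaminase, had 114 and 157 CPM in WT and 83.1 and 90.5 CPM in S1KO (log2 fold change -0.64, adjusted p = 0.171). ENTPD4, an intracellular relative of ENTPD1 in the Golgi, had 86.9 and 121 CPM in WT and 49.2 and 59.9 CPM in S1KO (log2 fold change -0.93, adjusted p = 0.101), and DESeq2 called it lower. ENTPD6, another relative of ENTPD1, had 65.2 and 79.5 CPM in WT and 55.6 and 64.6 CPM in S1KO (log2 fold change -0.27, adjusted p = 0.468). ENTPD7, a further relative, was low and had both S1KO libraries above both WT libraries (log2 fold change 0.27), and none of these relatives passed the edgeR test. NT5E (CD73), which turns AMP into adenosine, was not tested, at 0 to 2.93 CPM.

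Channels that release nucleotides and carriers of nucleosides had a median of -0.27 over 17 tested genes. Of these, 5 were lower and 3 higher in both S1KO libraries, as were 25.7% and 26.0% of all genes. SLC29A1, the main equilibrative nucleoside carrier, had 227 and 328 CPM in WT and 173 and 183 CPM in S1KO (log2 fold change -0.64, adjusted p = 0.198). SLC17A9, which loads ATP into vesicles, and CALHM2, a channel linked to ATP release, had overlapping groups (log2 fold changes -0.32 and -0.11). In the same list DESeq2 called SLC29A4 higher and LRRC8C lower, in a test that called 7.54% of all genes.

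The lists nearest to the signalling output of the receptors had medians close to that of all genes. Over 5 tested genes of lysophosphatidylserine signalling, the pathway of GPR34, the median was 0.00, and the lipases ABHD12, which degrades the lipid, and ABHD16A, which makes it, had log2 fold changes of -0.34 and -0.29. GPR82, a receptor gene next to GPR34, had 38.3 to 48.1 CPM in all libraries with a log2 fold change of 0.00. GPR174, a lysophosphatidylserine receptor of lymphocytes, was low at 1.64 and 1.15 CPM in WT and 8.36 and 5.59 CPM in S1KO. The edgeR test did not call it (log2 fold change 2.32, adjusted p = 0.0689). It was called higher in 4 of 14 alternatives, DESeq2 among them. The 17 G proteins and effectors had a median of 0.03, with GNAS at -0.41, PLCB2 at -0.24 and ARRB2 at 0.03 (adjusted p = 0.355, 0.620 and 0.940). In this list DESeq2 called KCNK13 and ADCY7 lower, with edgeR log2 fold changes of -0.997 and -0.746. The 7 genes of P2X7 output, the inflammasome and its cytokines, had a median of 0.05. Among them IL1B had 207 and 419 CPM in WT and 118 and 125 CPM in S1KO (-1.36 ± 0.33 SE on the log2 scale, adjusted p = 0.107), and DESeq2 called it lower, whereas PYCARD (-0.30) and CASP1 (0.22) were nearer to 0.

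**Figure D5:**
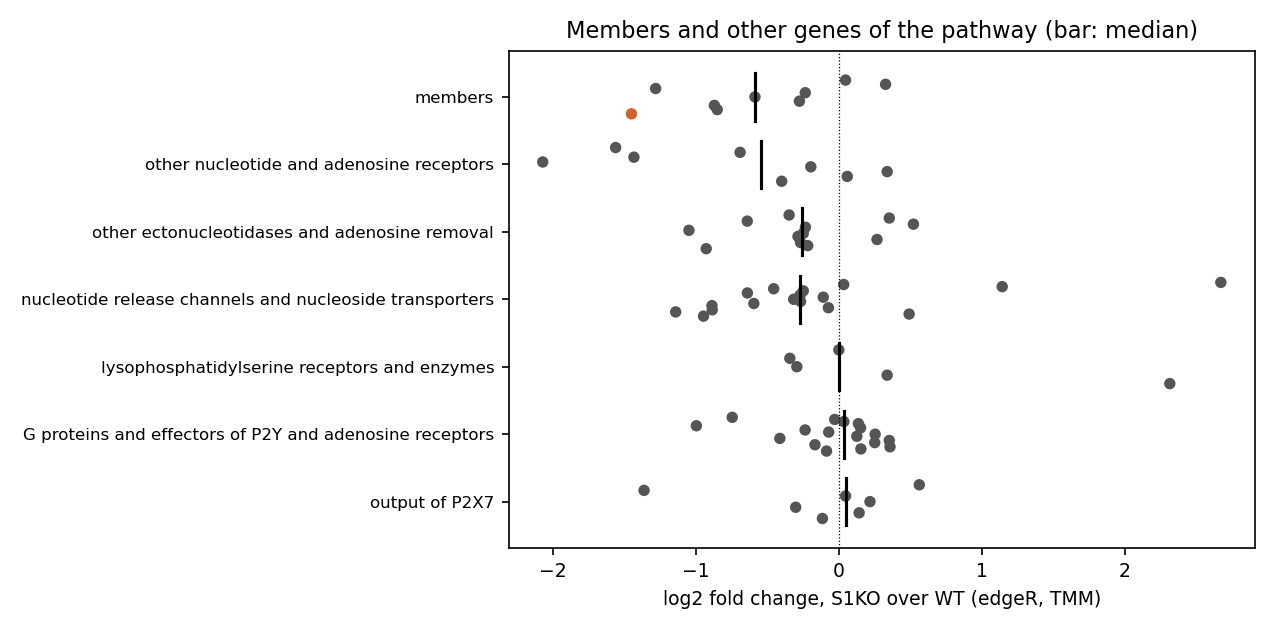
Log2 fold change, S1KO over WT, of the tested members and of the tested genes in 6 other lists of the pathway, 1 point for each gene and a bar at the median, with the called gene (P2RY12) in orange. The medians run from -0.59 for the members and -0.55 for the other receptors to 0.05 for the genes of P2X7 output.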

How the data were processed

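Poly-A selected RNA from 2 WT and 2 S1KO iMGL libraries was sequenced as paired reads of 150 bp, per the labels' protocols. The authors quantified reads with kallisto (build hg38), per the submitters' processing notes (version and transcript set not given in the sources used here). Deposited estimated counts and TPM are per transcript, per the file headers, 1 file per library. Of 188753 transcripts, 169797 were summed to genes by identifier (GENCODE 29) and 15521 by symbol; 3435 without a name (0.323% to 0.643% of counts) were left out. Some lengths differ from GENCODE 29 (ENTPD1-201 has 12493 bases against 2035), so the authors' transcript set is another one.

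Gene sums of estimated counts were rounded, filtered with filterByExpr (15388 of 35605 genes), TMM-scaled (factors 0.653 to 1.313) and tested with edgeR 4.0.16 (quasi-likelihood, two-sided, R 4.3.3) in a model of genotype alone, over all genes, with Benjamini-Hochberg adjustment at 0.05. Intervals use the SE implied by the test. In counts simulated for the contrast of S1KO and WT (15388 genes, 200 of them changed), the test recovered 23% of the 2-fold and 88% of the 4-fold changes put in. It called 114 genes, 3 of them unchanged. Alternatives were DESeq2 1.42.0 (size factors, test), limma 3.58.1 on log2(TPM + 1), log2(TPM + 0.1) and TPM without mitochondrial genes, 2 other filters, the replicate block, a length offset, coding transcripts only, no mitochondrial genes, and each library left out. Members and gene lists were chosen with earlier results of these data known. From each list the 3 genes of highest mean TPM are named, and the transcripts named held at least 10% of their gene's counts in a library; NT5E, ENTPD7, GPR174, SLC29A4, LRRC8C, KCNK13 and ADCY7 were named after their values were seen. Replicate numbers do not pair the libraries in the labels.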

Additional observations from a re-analysis of the deposited data

How the results depend on the processing

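Of the 15 alternatives, 145 genes called became 1161 with DESeq2, 1362 with no filter, 224 with a stricter filter, 2896 and 2642 with limma on log2(TPM + 1) and log2(TPM + 0.1), 21 with protein-coding transcripts only, and 0 to 2140 with a library left out (0 without either S1KO library). Members called (1) became 3 with DESeq2 and with no filter, 4 with both limma fits on TPM, 0 with protein-coding transcripts only and with limma on TPM without mitochondrial genes, and 0 to 4 with a library left out. Pathway genes called (0) became 8, 9, 19 and 18 with DESeq2, no filter and the limma fits, 1 (GNA11) with the length offset and with limma without mitochondrial genes, and 0 to 16 with a library left out. The log2 fold change of P2RY12 no longer passed the threshold with the length offset (-1.43, adjusted p = 0.0541), protein-coding transcripts only (-1.45, 0.0963) and limma without mitochondrial genes (-1.44, 0.0735), and was -1.63 to -1.24 with a library left out. Values that changed sign were ADORA3 (-0.63 to 0.31 with a library left out), ADORA2A with the length offset (0.72) and with limma without mitochondrial genes (0.30), ENTPD1 with protein-coding transcripts only (-0.27), and GPR34 with limma on TPM (-0.85 and -0.88) and without WT 2 (-0.29) or S1KO 1 (-0.07), in a range up to 0.48. The cause of these changes was not tested. P2RX4 kept its direction and side of the threshold in all 15. A library left alone in its group was assumed to vary like the other group.

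With the replicate block, edgeR called 0 genes (2891 at an unadjusted p under 0.05), 0 members and 0 pathway genes, and P2RY12 was -1.44 (adjusted p = 0.0868). The deviations of same-numbered libraries correlated at 0.025, so the numbers are taken only as names. In simulated counts with 200 genes changed, 23% of 2-fold changes were called. The changes fitted for P2RY13, P2RY6 and P2RX7 were smaller than 2-fold and can be missed with 2 libraries a genotype. The simulated share need not hold for the real libraries, where the number of changed genes is not known.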
